A study of Mus musculus with 6 samples.

Results

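The genes described here encode receptor chains for interleukins, read on arrays of mouse CD4 T cells that carried the transcription factor E47. The 10 chains asked about were Il2ra, Il2rb, Il2rg, Il7r, Il4ra, Il6ra, Il6st, Il21r, Il1rl1 and Il10ra. Members were all probe sets whose only gene symbol in the platform annotation was exactly 1 of these names. The rule uses no measured value, but the genes were picked with earlier results of these arrays known. The rule found 19 probe sets for 8 of the 10 genes, out of 45037 gene probe sets for 18193 named genes. Il2rg and Il1rl1 had no probe set under their symbols in the annotation used here and were not analysed.

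Both groups were C57BL/6 T cells that started as CD25-negative CD4 cells of the lymph nodes and were driven towards a regulatory (Treg) fate in culture. In the E47 group (n = 3 arrays) the retrovirus pMIT-E47-ER carried E47, a basic helix-loop-helix (bHLH) protein made from Tcf3, fused to the estrogen receptor (ER) domain. In the control group (n = 3 arrays) the retrovirus was pMIT-bHLH-ER, known here by its name alone. Cells of both groups grew for 2 days on anti-CD3 (2 µg/ml) and anti-CD28 (1 µg/ml) with 200 U/ml IL-2 and 5 ng/ml TGF-β1 and received virus on day 1. They were then sorted as CD4+Thy1.1+ and given 6 hours of antibodies, IL-2 and 1 µM tamoxifen, which releases ER fusion proteins into the nucleus. Each of 3 experiments gave 1 E47 and 1 control sample, from mice aged 7, 8 and 9 weeks with 3, 3 and 4 animals pooled per sample. No array came from cells without tamoxifen, and each sample is a bulk population.

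Most interleukin receptors named here are assembled from a chain that binds the cytokine and a chain, often shared between several cytokines, that carries the signal through JAK kinases to STAT factors. Il1rl1 belongs to the IL-1 receptor family, which signals through MyD88 instead. IL-2, IL-7, IL-4 and IL-21 share the γ chain encoded by Il2rg, while IL-6 signals through gp130, the product of Il6st. In T cells, stimulation with IL-2 is known to sustain Il2ra, which encodes CD25, and to lower Il7r, and Treg cells are known for high CD25 and low IL-7 receptor.

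Array facts that touch every result were few. Median intensity lay between 34.3 and 35.1 on E47 arrays and between 34.7 and 35.4 on control arrays. The introduced gene gave no check of the labels: the 3 Tcf3 probe sets had E47 minus control differences of -0.01, 0.28 and 0.02 in log2 intensity, and where those probes lie in the gene was not analysed here. Of 12 probe sets for T cell markers, 11 had a mean above the median of all probe sets, as did 5 of 6 for CD8 T cells. The same held for 3 of 8 for B cells, 3 of 8 for myeloid cells, 1 of 7 for mast cells or basophils and 0 of 4 for NK cells. Foxp3, the Treg lineage factor, lay between 6.07 and 7.83 in E47 samples and between 6.29 and 8.16 in control samples (log2 intensity), highest in experiment 2 in each group.

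E47 samples were set against control samples of the same experiment to ask which receptor chains differed between the constructs. None of the 19 probe sets passed an adjusted p of 0.05 in the paired fit (limma, Benjamini-Hochberg adjustment over all 45037 probe sets, of which 0.271% passed, 0.238% higher and 0.0333% lower in E47). At an unadjusted p under 0.05 there were 6, against 9.06% of all probe sets. Of these, 5 had the higher mean in E47 samples, against 4.33% of all (both of Il7r, both of Il6ra and that of Il21r), and 1, of Il10ra, the lower, against 4.74%. With no replicate block none of the 19 passed, against 0.115% of all, and 5 had an unadjusted p under 0.05, against 5.94%. Across the 19 the median log2 difference was 0.11, with 12 above 0 and 7 below, beside a median of -0.02 over all probe sets. Values ran from -0.23 to 0.61. The 95% intervals, not adjusted for the number of probe sets, lay inside a 2-fold change either way for all 19, and inside 1.5-fold for 15. The 4 that reached past 1.5-fold were both probe sets of Il7r, the brighter one of Il6ra and that of Il21r. These intervals bound array signal, not transcript amount, and 17 of the 19 had a mean above the median of all probe sets. In bulk RNA fewer cells with a transcript and less transcript per cell cannot be told apart.

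**Figure D1:**
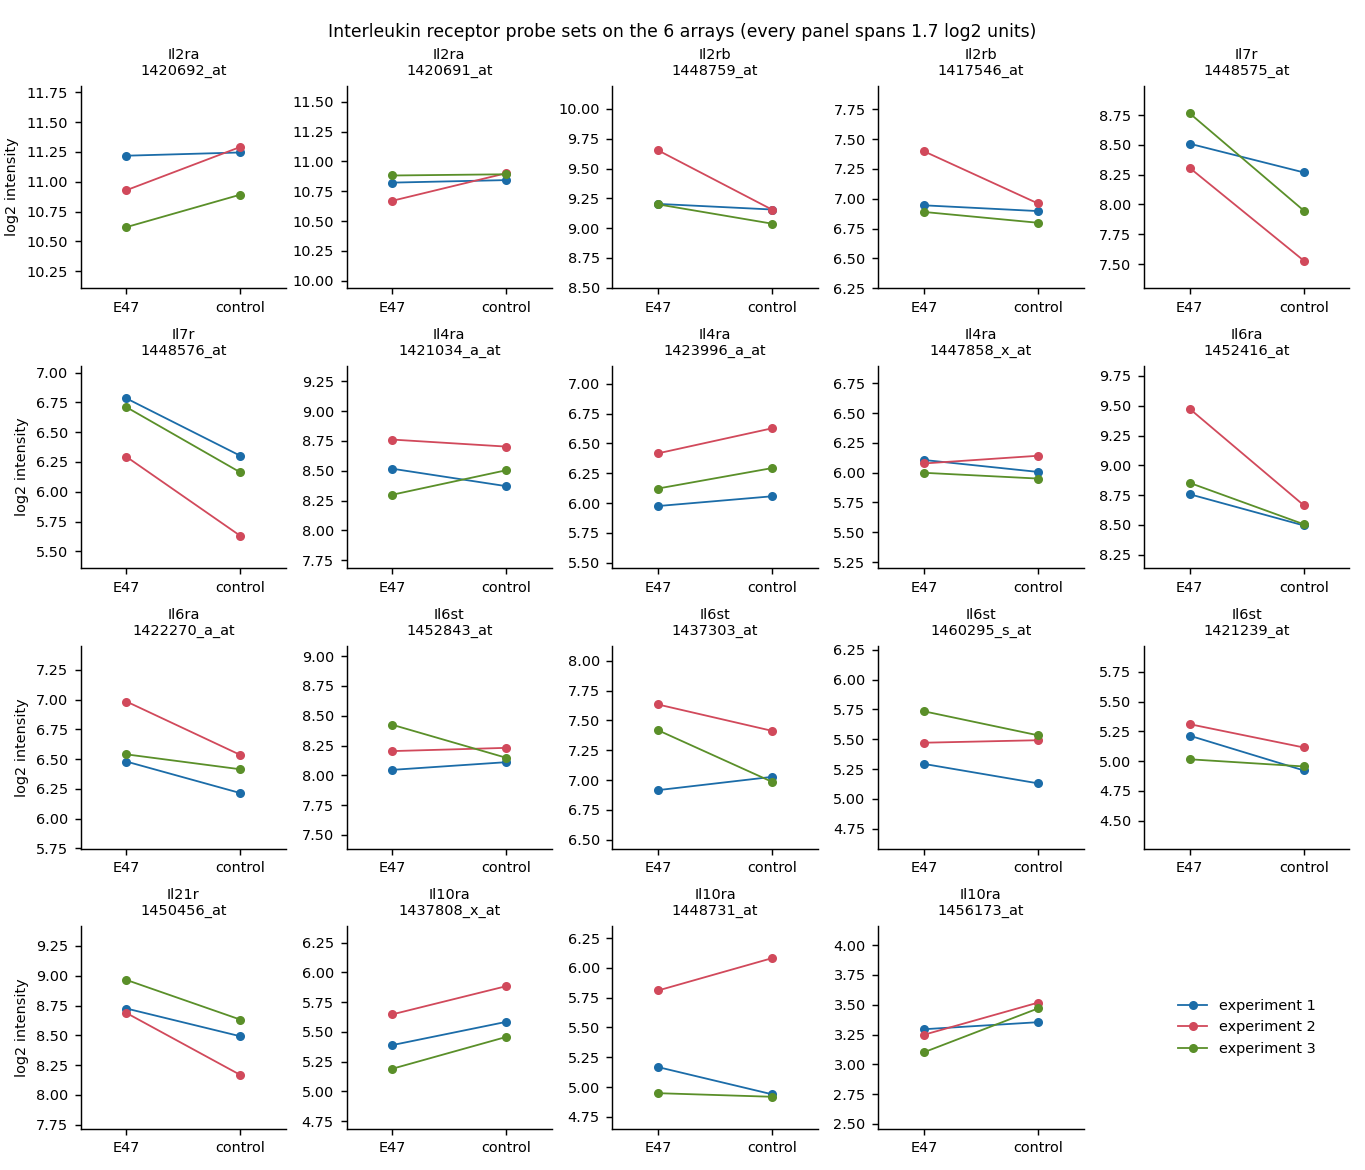
Log2 intensity of each of the 19 probe sets (vertical axis) on the E47 array and the control array of each experiment (horizontal axis), with a line joining the arrays of 1 experiment and 1 colour per experiment. Each panel spans the same range of log2 units; Il7r is higher in E47 in all 3 experiments, with E47 values between 8.31 and 8.76 and control values between 7.53 and 8.27 in its brighter probe set.

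Il7r, the α chain that binds IL-7 and, with another partner, TSLP, had the largest differences. Its brighter probe set, 1448575_at, read 8.51, 8.31 and 8.76 in E47 replicates 1 to 3, against 8.27, 7.53 and 7.95 in control replicates 1 to 3 (log2 intensity). All E47 values lay above all control values, although E47 replicate 2 was close to control replicate 1. The pair differences were 0.24, 0.78 and 0.82, a mean log2 difference of 0.61 (SE 0.14, 95% interval 0.28 to 0.95, adjusted p = 0.281). The dimmer probe set, 1448576_at, read 6.78, 6.29 and 6.71 in E47 samples, against 6.30, 5.63 and 6.16 in control samples. Here E47 replicate 2 was just under control replicate 1, so the groups overlapped, but the pair differences were all positive at 0.48, 0.66 and 0.55. That gave a log2 difference of 0.56 (SE 0.09, 95% interval 0.35 to 0.78, adjusted p = 0.114), or 1.48-fold.

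The Il7r difference was the nearest to the threshold of any member, and 2 settings took it past. With the mean of both probe sets as the gene's value, Il7r had a log2 difference of 0.59 (adjusted p = 0.0438). Without experiment 1, which had the smallest pair difference, the brighter probe set had 0.80 (adjusted p = 0.0284). The same probe set had 0.53 without experiment 2 and 0.51 without experiment 3, and passed in neither. Over all alternatives the adjusted p of that probe set ran from 0.0284 to 1.00 and that of the dimmer one from 0.0527 to 0.804. The cells began as CD4 cells and were sorted as CD4+Thy1.1+, and the purity of the sort was not analysed here. CD8 T cells also express Il7r. Markers of CD8 T cells lay between 373 and 583 in summed intensity in E47 samples and between 285 and 430 in control samples. Of their 6 probe sets 5 were brighter than the median, and none passed. At an unadjusted p under 0.05, 3 were higher, against 4.33% of all probe sets (median log2 difference of the 6, 0.38). The part of CD8 T cells in the Il7r values was not tested.

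E47 binds the E-box, whose letters are CANNTG, so the stretch before the gene start is shown for some members. These are Il7r, Il6ra and Il21r, which had E47 means above control, and Il2ra, which had the opposite sign. They were picked after these differences were seen, so matches set beside direction here are no test. Each probe set of Il7r, Il6ra and Il21r had an unadjusted p under 0.05 in the paired fit. Il6st also had E47 means above control, but its sequence is not shown. None of the differences of the genes shown passed in the main fit. RefSeq windows were on hand for 6 of the 8 genes. Each sequence is the 250 bases that precede the annotated start (GRCm38.p6, RefSeq), on the gene's strand, with CANNTG in capitals.
Il7r (chr15:9529877-9530126, minus strand): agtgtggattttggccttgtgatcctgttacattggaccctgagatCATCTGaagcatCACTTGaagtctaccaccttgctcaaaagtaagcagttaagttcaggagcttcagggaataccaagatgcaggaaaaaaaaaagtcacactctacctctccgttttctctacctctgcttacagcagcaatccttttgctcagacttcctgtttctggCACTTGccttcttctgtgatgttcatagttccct
Il6ra (chr3:89913197-89913446, minus strand): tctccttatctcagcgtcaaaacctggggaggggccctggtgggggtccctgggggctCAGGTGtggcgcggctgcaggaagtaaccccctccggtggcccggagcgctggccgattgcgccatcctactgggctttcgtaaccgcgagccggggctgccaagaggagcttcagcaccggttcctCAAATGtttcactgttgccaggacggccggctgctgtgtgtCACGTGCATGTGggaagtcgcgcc
Il21r (chr7:125603179-125603428, plus strand): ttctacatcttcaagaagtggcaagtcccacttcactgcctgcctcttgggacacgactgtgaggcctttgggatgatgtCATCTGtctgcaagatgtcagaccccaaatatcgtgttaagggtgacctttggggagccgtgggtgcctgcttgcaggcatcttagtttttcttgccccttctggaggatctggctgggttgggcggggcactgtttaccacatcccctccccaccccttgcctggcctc
Il2ra (chr2:11642542-11642791, plus strand): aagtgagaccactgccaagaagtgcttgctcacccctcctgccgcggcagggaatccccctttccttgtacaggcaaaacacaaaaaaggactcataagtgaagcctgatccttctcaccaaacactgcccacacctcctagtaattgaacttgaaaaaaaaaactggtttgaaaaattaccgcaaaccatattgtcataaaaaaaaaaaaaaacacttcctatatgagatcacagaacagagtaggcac

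The Il7r window held 3 matches, CATCTG with its first base 204 bases before the start and CACTTG at 192 and at 34. In the Il6ra window there were 4, CAGGTG at 192, CAAATG at 65, and CACGTG at 24 directly followed by CATGTG at 18. A single CATCTG at 170 stood before Il21r, and the Il2ra window had none. Il4ra had 1 match, CAGCTG, and Il6st 1, CAAGTG, so 5 of 6 windows (83.3%) contained the motif. CANNTG reads the same on both strands and occurred in 66.2% of all 32851 promoter windows of this length. Over those windows CANNTG had a mean of 1.16 matches and a median of 1. Of the forms it includes, CAGCTG was in 13%. The asymmetric form CAGGTG, counted on either strand, was in 17.2%. A match describes letters only, since no binding was measured.

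Il6ra, the chain that binds IL-6, came next in size. The brighter probe set, 1452416_at, had 8.76, 9.47 and 8.85 in E47 samples, against 8.50, 8.66 and 8.51 in control samples (log2 intensity). The groups did not overlap, and E47 replicate 2 stood well above the rest. Its pair differences were 0.26, 0.81 and 0.35, with a log2 difference of 0.47 (SE 0.13, 95% interval 0.16 to 0.79, adjusted p = 0.396). Without experiment 2 it was 0.30. The dimmer probe set, 1422270_a_at, gave pair differences of 0.26, 0.45 and 0.13 and a log2 difference of 0.28 (SE 0.10, adjusted p = 0.502), with overlapping groups. Il6ra was thus higher in the E47 sample of every pair by either probe set, without passing the test.

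Il6st encodes gp130, the signalling partner of the IL-6 receptor, and its 4 probe sets stayed closer to 0. Their log2 differences were 0.06, 0.18, 0.11 and 0.18, from brightest to dimmest, with adjusted p between 0.612 and 0.882. E47 and control values overlapped in each. Single experiments weighed on these values: 1437303_at (0.18) gave 0.33 without experiment 1 and 0.05 without experiment 3, and 1460295_s_at (0.11) gave 0.18 without experiment 2 and 0.07 without experiment 3. Only the dimmest, 1421239_at, was positive in all 3 pairs (0.29, 0.20 and 0.06). The brightest, 1452843_at, read 8.05, 8.20 and 8.42 in E47 samples, against 8.11, 8.23 and 8.15 in control samples. Its 95% interval ran from -0.19 to 0.31. The 2 dimmest share an annotated accession and so are not separate evidence.

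**Figure D2:**
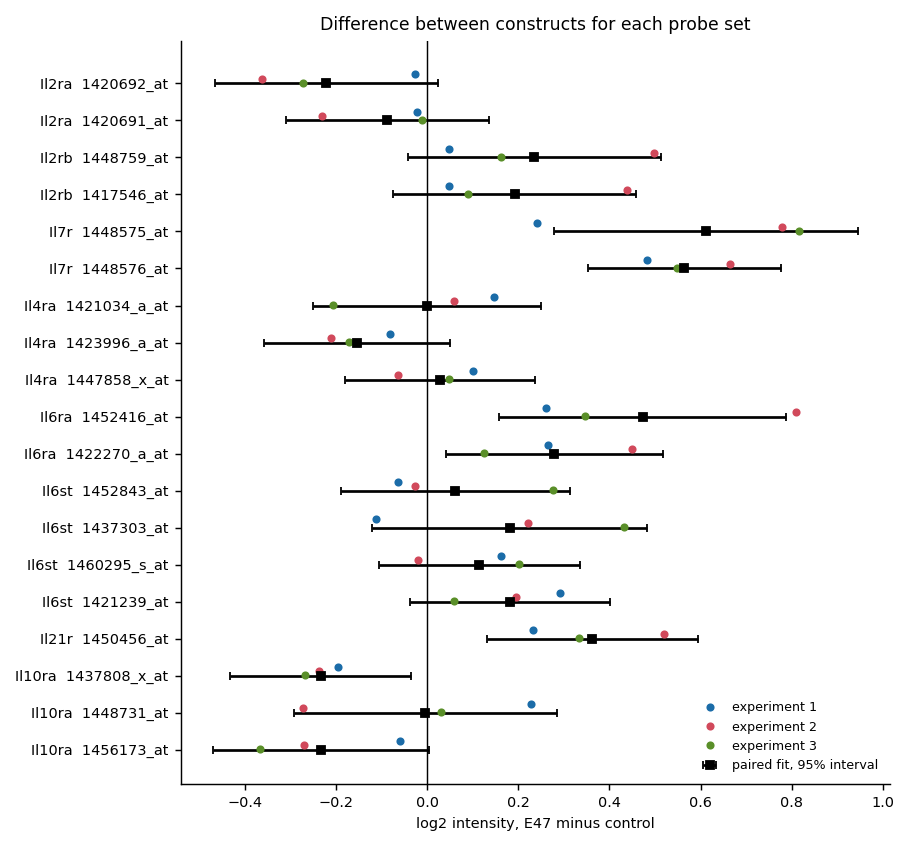
E47 minus control log2 intensity for each probe set: black squares are the paired fit with its 95% interval, and coloured points are the 3 pair differences. Intervals clear of 0 belong to both Il7r probe sets, both of Il6ra, that of Il21r and 1 of Il10ra, and none of these passed after adjustment over all probe sets.

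Il21r binds IL-21, a cytokine of follicular helper and Th17 cells, and had 1 probe set, 1450456_at. It read 8.73, 8.69 and 8.97 in E47 samples, against 8.49, 8.17 and 8.63 in control samples (log2 intensity). Each E47 value lay above each control value, the closest being 8.69 and 8.63. The pair differences of 0.23, 0.52 and 0.33 gave a log2 difference of 0.36 (SE 0.09, 95% interval 0.13 to 0.59, adjusted p = 0.373).

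Il2ra and Il2rb, the measured chains of the IL-2 receptor, had opposite signs, but the 95% interval of each of their probe sets held 0. Il2ra, the CD25 chain that raises affinity for IL-2, read 11.22, 10.93 and 10.62 in E47 samples, against 11.25, 11.29 and 10.89 in control samples, in its brighter probe set 1420692_at. The groups overlapped, and E47 was below control in each pair, by -0.03, -0.36 and -0.27. The log2 difference was -0.22 (SE 0.10, 95% interval -0.47 to 0.02, adjusted p = 0.585). In 1420691_at, annotated to the same accession, the pair differences were -0.02, -0.23 and -0.01 and the log2 difference -0.09 (SE 0.09, adjusted p = 0.799). Without experiment 2 it was -0.016. A loss of Il2ra signal beyond the lower bounds of these intervals, 0.72 and 0.81 of control, lay outside them.

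Il2rb, the β chain that IL-2 and IL-15 use to signal, read 9.20, 9.65 and 9.20 in E47 samples, against 9.16, 9.15 and 9.04 in control samples, in probe set 1448759_at (log2 intensity). The groups did not overlap, yet E47 replicates 1 and 3 lay just above the highest control, nearer to it than the lowest control was. The pair differences were 0.05, 0.50 and 0.16, and the log2 difference was 0.24 (SE 0.11, 95% interval -0.04 to 0.51, adjusted p = 0.607). The dimmer 1417546_at showed 0.05, 0.44 and 0.09 in the pairs and a log2 difference of 0.19 (SE 0.11, adjusted p = 0.651). In both probe sets most of the difference came from experiment 2. Without it the log2 differences were 0.10 and 0.07.

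Il4ra, the chain that binds IL-4 and also serves IL-13, had no common direction. Its brightest probe set, 1421034_a_at, read 8.52, 8.76 and 8.30 in E47 samples, against 8.37, 8.70 and 8.50 in control samples, with a 95% interval from -0.25 to 0.25 around a mean difference close to 0 (adjusted p = 1.00). The other two had log2 differences of -0.15 (1423996_a_at, adjusted p = 0.638) and 0.03 (1447858_x_at, adjusted p = 0.937). Il4ra was the 1 gene of 7 with several probe sets whose signs disagreed.

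Il10ra, which binds IL-10, had 3 probe sets. The first, 1437808_x_at, read 5.39, 5.65 and 5.19 in E47 samples, against 5.58, 5.88 and 5.46 in control samples (log2 intensity). Pair differences were -0.20, -0.24 and -0.27, the narrowest spread of the 19, and the log2 difference was -0.23 (SE 0.08, 95% interval -0.43 to -0.03, adjusted p = 0.500). The groups overlapped because experiment 2 was higher in both. In 1456173_at the groups were apart, with 3.29, 3.25 and 3.10 in E47 samples, against 3.35, 3.52 and 3.47 in control samples, but every value was dimmer than 5.12, the median over the array (adjusted p = 0.559). The third, 1448731_at, showed a log2 difference of -0.0043 (95% interval -0.29 to 0.28), with pair differences of 0.23, -0.27 and 0.03. Its means, 5.31 in E47 and 5.31 in control samples, lay not far above that median. The same held for 1437808_x_at, with means of 5.41 and 5.64.

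Counted by groups that do not overlap, 4 probe sets were higher in E47 (1 each of Il2rb, Il7r, Il6ra and Il21r), against 4.57% of all probe sets, and 1 was lower (Il10ra), against 6.65%. By the sign of the pairs, 8 of 19 were higher in E47 in all 3 experiments, against 13.5% of all, and 5 of 19 were lower in all 3, against 17.5%. The 8 were both probe sets of Il2rb, Il7r and Il6ra, that of Il21r and 1 of Il6st. The 5 were both of Il2ra, 1 of Il4ra and 2 of Il10ra. Probe sets of 1 gene read the same transcripts, so these counts are not counts of independent observations.

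The 3 experiments were compared in the same fit with an F test of the experiment term. None of the 19 probe sets passed an adjusted p of 0.05 (limma), which 0.604% of all probe sets did, and 8 had an unadjusted p under 0.05, against 12.7% of all. Il10ra had the widest spread: 1448731_at read 5.17, 5.81 and 4.95 in E47 replicates 1 to 3, against 4.94, 6.08 and 4.92 in control replicates 1 to 3 (F test adjusted p = 0.0804). It passed in 3 of 8 alternatives, with adjusted p of 0.0488 among probe sets brighter than the median, 0.0239 with an intensity-trended prior and 0.0105 without experiment 1, and it reached 0.959 in another. The brighter Il2ra probe set passed with the trended prior (0.0401, up to 0.921 elsewhere). Experiment 2 was the one farthest from the overall mean in 13 of 19 probe sets, above it in 11 and below it in 2, against 39.8% of all probe sets with experiment 2 farthest. The 2 below were those of Il7r, at -0.30 and -0.35 (log2). Experiment 2 also had the largest pair difference in size in 10 of 19, against 35.5% of all probe sets. Whether the construct's effect differs between experiments could not be tested, with 1 pair in each.

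**Figure D3:**
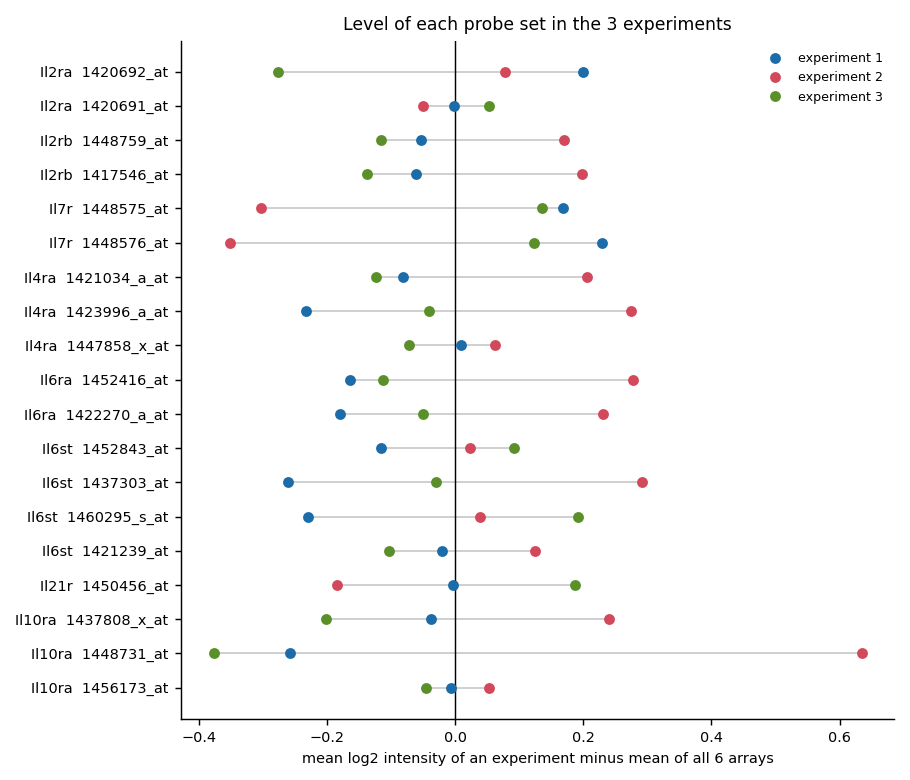
Mean log2 intensity of each experiment, E47 and control arrays together, minus the mean over all 6 arrays, for each probe set. Experiment 2 lies to the right in Il6ra and in Il10ra 1448731_at (0.64) and to the left in both Il7r probe sets.

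The rest of the pathway was read from 5 gene lists. Of 29 other interleukin receptor genes measured (50 probe sets), none passed, while 2 probe sets were higher (4%) and 6 lower (12%) at an unadjusted p under 0.05, against 4.33% and 4.74% of all probe sets. Their median log2 difference was -0.06. The lowest p belonged to Il12rb1, which serves the IL-12 and IL-23 receptors (-0.69, SE 0.09, adjusted p = 0.0670), and to Il18rap, the accessory subunit for IL-18 (-0.74 and -0.73, adjusted p = 0.0751 and 0.0802). Each was below control in all 3 pairs. Their calls changed with the setting: with the brightest probe set per gene both passed (adjusted p = 0.0188 and 0.0244). Il12rb1 passed in 6 of 12 alternatives, at 0.00829 to 0.865 over all, and Il18rap in 5, at 0.0112 to 0.549. Where a setting kept both Il18rap probe sets, the lower adjusted p was taken. Il10rb, the partner of Il10ra, had 0.47 and 0.37 (adjusted p = 0.180 and 0.355) beside the -0.23 to -0.0043 of Il10ra, and was picked out after its values were seen.

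Among 17 other class I and II cytokine receptor genes (34 probe sets) none passed, and 3 probe sets were higher (8.82%) and 1 lower (2.94%) at an unadjusted p under 0.05. Those with the lowest p were the chains of the type I interferon receptor, Ifnar1 (0.56, SE 0.09, adjusted p = 0.148, and 0.75, SE 0.32, adjusted p = 0.572) and Ifnar2 (0.45, SE 0.10, adjusted p = 0.293, with 0.36 and 0.19 in its other probe sets). The median was 0.01.

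Of 17 genes for ligands of the receptors (22 probe sets) 2 passed higher in the main fit, against 0.238% of all probe sets. None passed lower, against 0.0333%. At an unadjusted p under 0.05, 3 probe sets were higher (13.6%) and 2 lower (9.09%), against 4.33% and 4.74% of all. Il10 read 8.51, 7.56 and 8.75 in E47 samples, against 6.24, 5.27 and 6.18 in control samples, a log2 difference of 2.38 (SE 0.10, adjusted p = 0.00249), and Il4 had 1.46 (SE 0.11, adjusted p = 0.0150). Their receptor chains Il10ra and Il4ra had log2 differences between -0.23 and 0.03. The Il10 call was lost with no replicate block (adjusted p = 0.108) and without experiment 3 (0.0606), and the Il4 call without experiment 2 (0.131) and without experiment 3 (0.234). Each was kept in 10 of 12 alternatives, where adjusted p went as low as 3.24e-05 for Il10 and 0.00128 for Il4. Il9, which signals through the shared γ chain, had -0.74 (adjusted p = 0.0871) and Osm, a gp130 cytokine, -0.26 (adjusted p = 0.480). The Il9 call changed with the setting. It passed with an intensity-trended prior (adjusted p = 0.00642), the brightest probe set per gene (0.0273) and the mean per gene (0.0163). Il2, picked out after its values were seen, read 11.74, 12.40 and 12.80 in E47 samples, against 11.93, 12.32 and 12.96 in control samples.

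Downstream, 16 JAK, STAT and adaptor genes (34 probe sets) had none past the threshold, with 1 probe set higher (2.94%) and 7 lower (20.6%) at an unadjusted p under 0.05. Jak2, the kinase of several cytokine receptors, had -0.65 and -0.58 in its probe sets (adjusted p = 0.0910 and 0.211). Its call changed with the setting. Jak2 passed with an intensity-trended prior (adjusted p = 0.00427 and 0.0176) and with the mean of probe sets per gene (0.0297). Stat5a, which relays IL-2 and IL-7, had -0.33 and -0.26 (adjusted p = 0.366 and 0.481). In the list of genes that respond to STAT5 or feed back on cytokine signals (19 genes, 56 probe sets) none passed, with 10 probe sets higher (17.9%) and 1 lower (1.79%) at an unadjusted p under 0.05, against 4.33% and 4.74% of all. Socs3, an inhibitor that docks on gp130, had 1.06 (SE 0.13, adjusted p = 0.0670), 0.98 (0.148) and 0.58 (0.503) in its 3 probe sets, and Pim2, a survival kinase, 0.75 (SE 0.11, adjusted p = 0.0951). Both passed with the brightest probe set per gene (adjusted p = 0.0193 and 0.0304). Socs3 passed in 4 of 12 alternatives, at 0.00354 to 0.860, and Pim2 in 3, at 0.00483 to 0.854. Where a setting kept several Socs3 probe sets, the lowest adjusted p among them was taken.

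**Figure D4:**
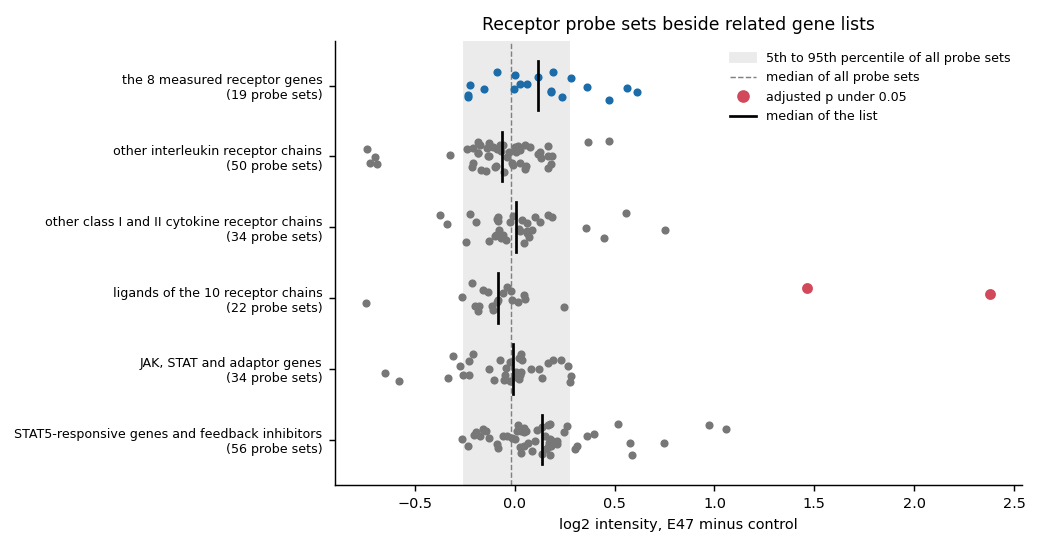
E47 minus control log2 intensity of every probe set in the 8 measured receptor genes and in 5 related lists, with the median of each list as a bar and the 5th to 95th percentile of all probe sets (-0.25 to 0.27) shaded. The red points past the threshold are Il10 (2.38) and Il4 (1.46), both ligands.

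Genes with the Il7r pattern over the 6 arrays were named by the root mean square difference between centred log2 profiles, among 19736 probe sets brighter than the median. For 1448576_at the nearest were Arhgap24 (0.07), Ppard, a nuclear receptor for fatty acids (0.09), and Rasl11b (0.10), beside a spread of 0.38 in Il7r itself. For 1448575_at they were Arhgap24 (0.09), Zfyve16 (0.11) and Rasl11b (0.12). Arhgap24 read 7.42, 7.07 and 7.58 in E47 samples, against 7.02, 6.42 and 6.94 in control samples. This likeness over 6 arrays is a description alone.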

How the data were processed

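Values were deposited by the authors as linear intensity, 1 number for each probe set on each array. RMA is the tool named per the submitters' processing notes, with no version, and other steps are not given in the sources used here. Log2 was taken of each value with no offset. The 64 control probe sets were left out, 45037 were tested and 34945 of these had 1 symbol. All 19 member symbols matched RefSeq by Entrez number.

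E47 was compared with control in limma 3.58.1 (R 4.3.3; lmFit, eBayes, two-sided) with the experiment as a fixed block, no filter on dim probe sets and Benjamini-Hochberg adjustment over all probe sets at 0.05. An earlier gene-level account of these arrays had no block in its main fit. Array number, 3 per group, limits the precision. The p-values rest on how far the pair differences of these 3 experiments vary, not on level differences between experiments, which the block removes. That variance was moderated by limma towards a value shared by all probe sets. The fit was tested on simulated data.

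The pairing rests on the design text, which gives 3 experiments of 1 sample set each, and on the same age and number of mice in same-numbered samples. Deviations from the group means correlated at 0.09, 0.52 and 0.31 in same-numbered arrays, and between -0.43 and 0.22 in others, so pair 1 missed the limit of 0.1. The 0.22 was E47 replicate 1 with control replicate 3, above the 0.09 of its own pair.

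Every member probe set is named. From each other list came called genes and up to 2 others by lowest p, and for the 2 Il7r probe sets the 3 nearest profiles. Members, lists and the blocked fit were chosen with earlier results of these data known. Alternatives were the block, centring, quantile normalization, a log offset of 16, a filter on dim probe sets, a trended prior, gene-level values and each experiment left out.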

Additional observations from a re-analysis of the deposited data

How the results depend on the processing

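With 12 alternatives, 195 of 204 member values kept their sign and stayed short of the threshold; Il7r passed in 2, and 7 turned sign, all near 0. For Il4ra 1421034_a_at these were 0.016 (median centring), 0.00015 (log2 of value plus 16) and 0.10 (without experiment 3), with -0.073 to 0.10 over the experiments left out. For Il4ra 1447858_x_at the range was -0.0081 (without experiment 1) to 0.074, for Il6st 1452843_at -0.046 (without experiment 3) to 0.13, and for Il10ra 1448731_at -0.12 to 0.13 (without experiment 2), with 0.012 after median centring. With no replicate block, 0 members passed, 5 had an unadjusted p under 0.05, 52 probe sets in all passed in place of 122, and 1 pathway gene (Il4) in place of 2. An intensity-trended prior gave 558 probe sets, 2 members that differed between experiments and 12 pathway genes. The brightest probe set per gene gave 208 genes and 8 pathway genes, and the mean per gene 201 and 9, with 1 member, Il7r. Probe sets brighter than the median gave 4 pathway genes and 1 member that differed between experiments. With 1 experiment left out, probe sets called ran from 4 (without experiment 3) to 551 (without experiment 1), and were 34 without experiment 2. Members called then ran from 0 to 1, members that differed between experiments from 0 to 1, and pathway genes from 0 to 7. The cause of these shifts was not tested. Leaving out 1 array removes its pair from this fit, so single arrays were not left out.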
